A study of Rattus norvegicus with 20 samples.

Results

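Whole blood of Zucker diabetic fatty (ZDF) rats given resveratrol was compared with whole blood of obese rats of the same kind that were not given it. The comparison takes the 5 arrays whose labels name resveratrol and the 5 whose labels name obese, which is 10 of the 20 arrays in the series, and it was described across all named genes. The other 10 arrays came from 5 rats labelled lean control and 5 labelled rosiglitazone, and they entered the model fit and serve here as reference points. All rats were male, of the strain labelled Zucker, kept in individual cages with free access to food, with 1 array per rat, and the labels give no litter or hybridization batch. The obese rats ate a stock diet for 6 weeks and the lean rats a standard chow, and no diet is stated for the treated rats. The dose of resveratrol, how it was given and for how long are not given in the sources used here, nor is the rats' age at sampling.

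ZDF rats carry a defective leptin receptor, overeat, and develop obesity with insulin resistance and later diabetes, so the obese group is a model of leptin signalling loss as well as of obesity. Resveratrol is a plant polyphenol that has been studied for effects on energy metabolism, with the deacetylase SIRT1, the kinase AMPK and the antioxidant regulator NRF2 among its proposed mediators. Whole blood holds RNA of red cells and reticulocytes, platelets, neutrophils, monocytes and lymphocytes together, and fewer cells of a type and less RNA per cell cannot be told apart in such samples.

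Values are log2 RMA values (robust multi-array averages, so 1 unit is a doubling), and 8499 named genes passed a filter at 2.64, the median over all transcript clusters. Markers of blood cells were present: Slc4a1, the red cell anion exchanger, measured 10.66 to 11.11 in resveratrol rats and Pf4, platelet factor 4, 10.47 to 10.93. Of the markers of other tissues, muscle Myh4 was at most 2.69 in any rat of either group and was removed by the filter, and liver Alb reached 5.04 in 1 obese rat. Muscle Acta1 passed the filter, with 3.56 to 4.22 in resveratrol and 3.48 to 4.12 in obese rats, a difference of 0.06. Hbb, Alas2, Cd79b and Itga2b carry no name here and were not analysed. One array stood apart from its group. Resveratrol replicate 1 had a mean correlation of 0.934 with the other 4 resveratrol arrays, against 0.955 to 0.959 for those 4, and it was the lowest or the highest of the 5 in 56.9% of genes, against 33.2% to 40.3%. Results are therefore also given without it.

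No gene passed the test between resveratrol and obese rats. In limma over all 20 arrays, 0 of 8499 genes were higher and 0 lower at an adjusted p under 0.05 (0% in each direction), and the smallest adjusted p was 0.143. At an unadjusted p under 0.05 there were 383 genes higher (4.51%) and 490 lower (5.77%). The values of the 5 resveratrol rats all lay above those of the 5 obese rats in 58 genes (0.682%) and all below in 93 (1.09%). The median difference over all genes was -0.02, and 95.3% of genes differed by less than 0.5 in either direction. Differences ranged from -1.37 to 1.04, and the median standard error was 0.19. Without resveratrol replicate 1 the count remained 0 in both directions, with a smallest adjusted p of 0.382. At an unadjusted p under 0.05, 271 genes (3.19%) were then higher and 256 (3.01%) lower, and 83 (0.977%) and 116 (1.36%) did not overlap. The genes described next are therefore those with the smallest p among genes whose groups do not overlap, 12 in each direction, and members of gene lists. None of them passed the adjusted threshold, and their lack of overlap was a condition of the choice.

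**Figure D1:**
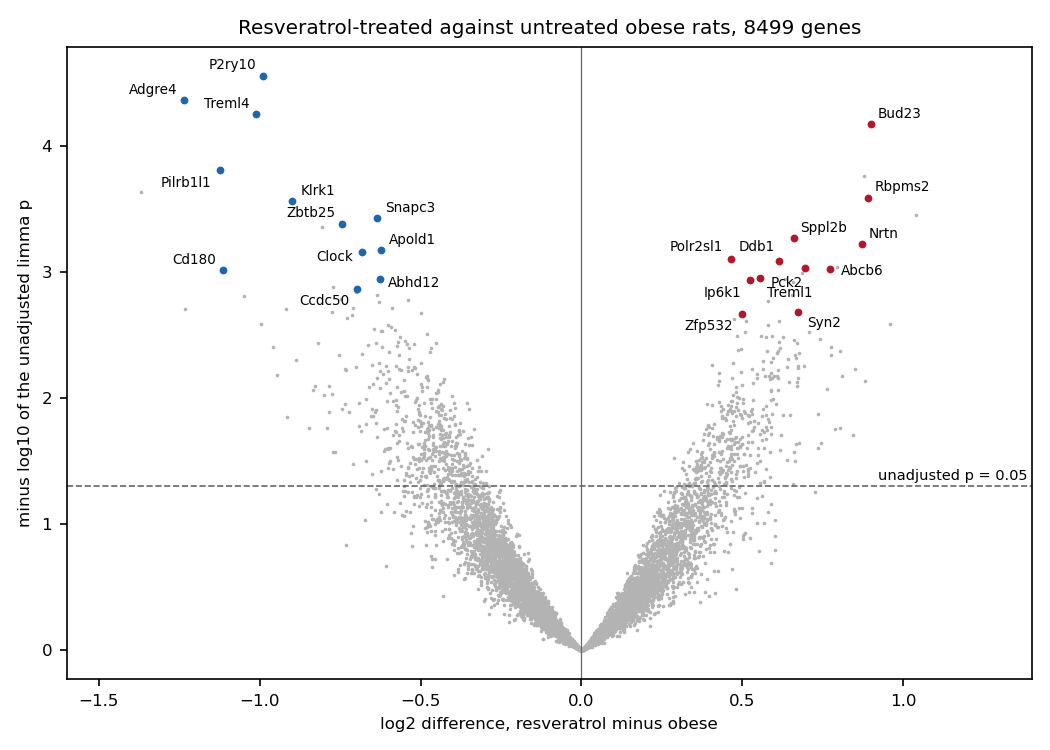
Each point is 1 of 8499 genes, with the log2 difference of resveratrol minus obese on the horizontal axis and minus log10 of the unadjusted limma p on the vertical axis. Blue and red points are the 12 lower and 12 higher genes named in the text. P2ry10 is the highest point at -0.99 and Bud23 the highest on the right at 0.90, and none of the points passed the adjusted threshold.

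Promoter windows are shown for Adgre4 and P2ry10, the lower genes with the smallest p, and for Cx3cr1, a lower gene of the monocyte list, because all 3 encode receptors of white blood cells. Each window runs from 250 bases before to 50 after the RefSeq gene start in build GRCr8. Capitals mark the letters GAGGAAGT or their reverse complement ACTTCCTC, a form of the site bound by PU.1, a transcription factor of myeloid and B cells. Adgre4 is at chr9:10085105-10085404 (+ strand), P2ry10 at chrX:76265633-76265932 (+ strand) and Cx3cr1 at chr8:128677017-128677316 (- strand).
Adgre4: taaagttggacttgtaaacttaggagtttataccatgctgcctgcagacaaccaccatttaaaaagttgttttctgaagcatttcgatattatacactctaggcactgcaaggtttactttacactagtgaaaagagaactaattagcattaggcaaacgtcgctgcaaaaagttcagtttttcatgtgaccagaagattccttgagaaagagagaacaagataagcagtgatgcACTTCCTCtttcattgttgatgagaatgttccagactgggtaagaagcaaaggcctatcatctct
P2ry10: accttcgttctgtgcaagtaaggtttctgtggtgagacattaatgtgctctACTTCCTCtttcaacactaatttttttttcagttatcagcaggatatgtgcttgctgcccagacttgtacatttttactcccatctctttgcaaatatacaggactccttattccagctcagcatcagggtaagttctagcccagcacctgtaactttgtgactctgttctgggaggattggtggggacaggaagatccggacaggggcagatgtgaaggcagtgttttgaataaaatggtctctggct
Cx3cr1: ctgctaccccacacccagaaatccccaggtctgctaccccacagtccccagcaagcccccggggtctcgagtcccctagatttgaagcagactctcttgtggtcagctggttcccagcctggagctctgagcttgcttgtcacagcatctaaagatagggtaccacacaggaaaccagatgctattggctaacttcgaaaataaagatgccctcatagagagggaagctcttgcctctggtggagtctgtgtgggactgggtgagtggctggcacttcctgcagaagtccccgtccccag
The PU.1 letters occur in 2.42% of the 33469 windows of the table. Of the 24 genes named by p, 20 have a window there, and Adgre4 and P2ry10 were the 2 whose window holds them. 3 other motifs were searched on both strands with overlaps allowed. AGATAA, which factors of the erythroid lineage bind, occurs in 11.6% of all windows, the E-box letters CACGTG of clock factors in 6.42%, and TGACNNNGC, the antioxidant response element, in 12.1%. Among the same 20 genes they occurred in 2, 3 and 1 windows. A match of letters is a description of the sequence only.

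Of the 12 lower genes, Adgre4, Treml4 and Pilrb1l1 are described first. Adgre4, an adhesion G protein-coupled receptor of myeloid cells in mice, measured 5.31, 6.91, 6.56, 6.27 and 6.83 in resveratrol replicates 1 to 5. In obese replicates 1 to 5 it measured 7.67, 7.69, 7.77, 7.70 and 7.23. Every resveratrol rat lay below every obese rat, and the lowest value was that of replicate 1. The difference was -1.24 (SE 0.25), or -0.97 without replicate 1.

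Treml4, a myeloid receptor that in mice binds dying cells, measured 4.65, 5.38, 4.37, 5.11 and 5.23 in the resveratrol rats. The obese rats had 6.03, 5.98, 6.11, 5.89 and 5.78, so that they spanned a narrow range above all resveratrol values. The difference was -1.01 (SE 0.21), and here the lowest rat was replicate 3 and not replicate 1. Pilrb1l1, a member of the paired immunoglobulin-like type 2 receptor family by its name, differed by -1.12 (SE 0.25), with resveratrol values from 4.30 to 5.90 and obese values from 5.92 to 6.60. Its groups were separated by a narrow gap, between resveratrol replicate 2 and obese replicate 5.

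The monocyte list holds 27 kept genes. Of these, 7 (25.9%) were lower and 0 higher at an unadjusted p under 0.05, against 5.77% and 4.51% of all genes. These shares over all genes apply to the list counts below, before any array is left out or covariate added. With single arrays left out, counts over all genes lay between 249 and 445 higher and between 256 and 665 lower. Without resveratrol replicate 1 they were 271 and 256, without obese replicate 4 they were 249 and 384, and with the red cell covariate 153 and 234. A list count that moves in such a fit is therefore not by itself particular to the list. The median difference of the monocyte list was -0.31. Cx3cr1, the fractalkine receptor that is high on patrolling monocytes in mice, measured 3.98, 5.86, 5.25, 5.66 and 6.02 in resveratrol rats. Obese rats had 6.27, 6.47, 6.64, 6.25 and 6.37, and the groups did not overlap. The difference was -1.05 (SE 0.29, adjusted p = 0.368 in limma), and replicate 1 lay far below the other 4 resveratrol rats. The remaining 6 genes at an unadjusted p under 0.05 were Clec4a3 at -1.0, Cd4 at -0.78, Csf1r at -0.72, Nr4a1 at -0.68, Clec4a1 at -0.65 and Adgre1 at -0.59. Csf1r is the receptor for the growth factor that maintains monocytes, Nr4a1 is a nuclear receptor that patrolling monocytes of mice require, and CD4 is present on rat monocytes as well as on helper T cells. Cd14, the endotoxin co-receptor, differed by -0.13, with resveratrol values between 3.43 and 4.59 and obese values between 3.98 and 4.52. Genes of the list did not all lie lower: 6 of 27 were above 0.

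The mean of the monocyte list was 4.75, 5.42, 5.42, 5.52 and 5.60 in resveratrol rats and 5.51, 5.75, 5.81, 5.77 and 5.45 in obese rats. The groups overlapped on this mean, since 2 resveratrol rats lay above the lowest obese rat. Without replicate 1 the list median was -0.18, and 4 of the 7 genes, Cx3cr1, Cd4, Clec4a3 and Nr4a1, remained at an unadjusted p under 0.05. The list median stayed below 0 under all 21 alternatives, between -0.38 and -0.18. The median of the neutrophil list was 0.06, and 0.17 without resveratrol replicate 1. It lay between -0.05 and 0.17 over the 21 alternatives, with the other sign in 3. In that list 16 of 26 genes were above 0, and S100a8 and S100a9, the calprotectin subunits, differed by 0.06 and 0.19. Of that list, Ceacam1, an adhesion molecule of several white cell types, differed by -0.96 (SE 0.30), and Mmp9, a gelatinase of neutrophil granules, by 0.72 (SE 0.36).

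**Figure D2:**
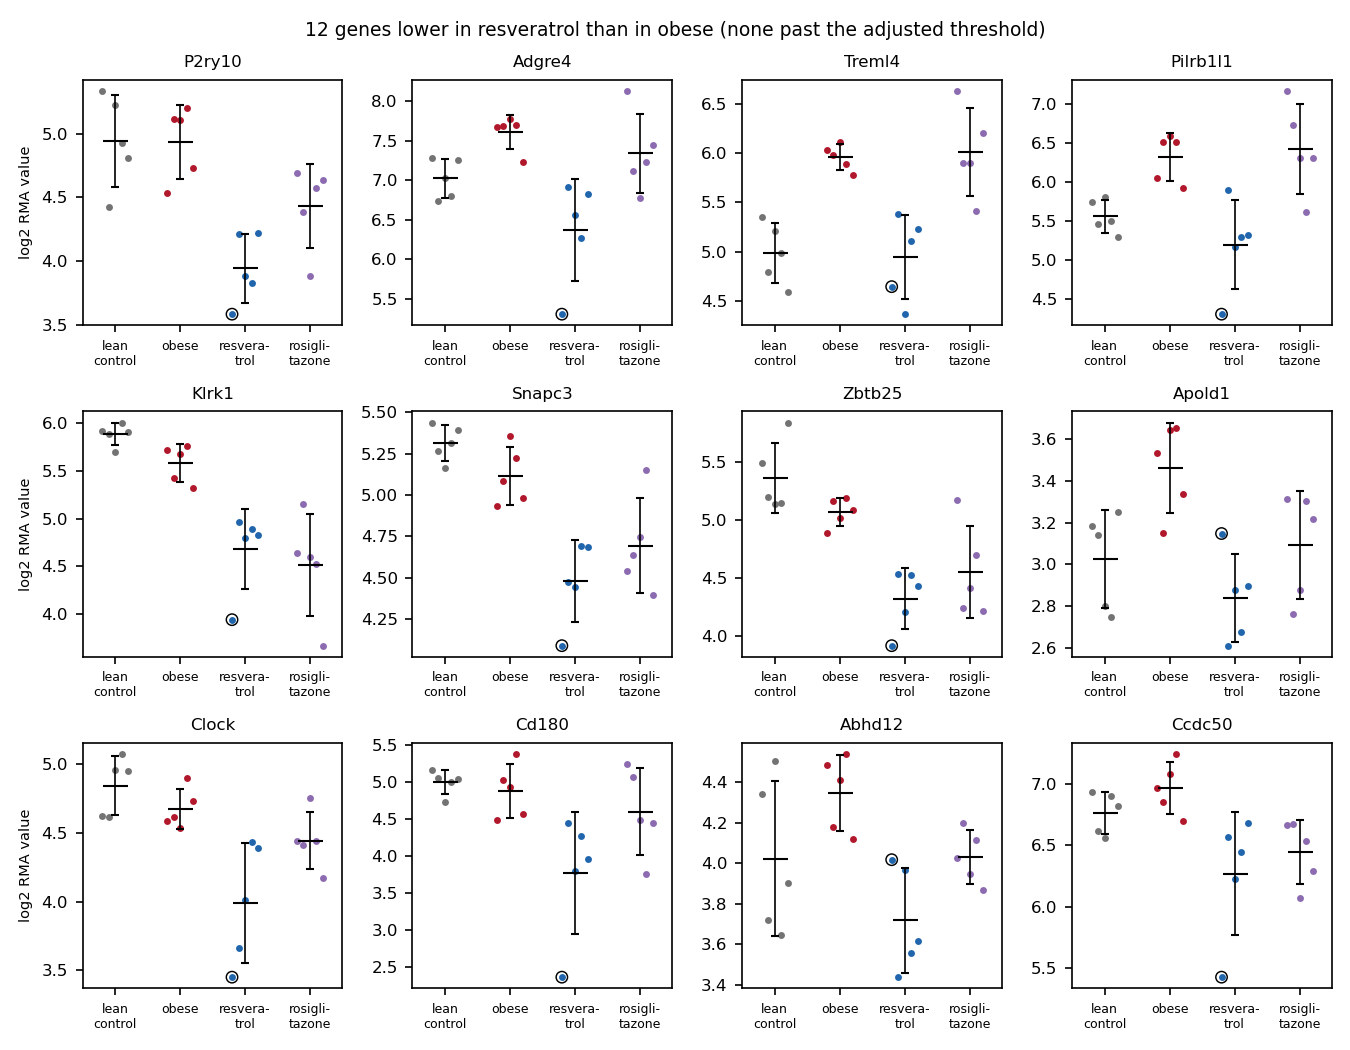
Log2 RMA values of the 12 lower genes in each rat of the 4 groups (points), with the group mean and SD (bars, n = 5) and resveratrol replicate 1 circled. Resveratrol and obese points do not overlap in any panel, which was a condition of the choice, and replicate 1 is the lowest resveratrol point in 9 of the 12 panels.

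P2ry10, a G protein-coupled receptor of lymphocytes that responds to lysophosphatidylserine, had the smallest p of all genes. It measured 3.58, 4.21, 3.88, 3.83 and 4.22 in resveratrol rats and 4.53, 5.11, 5.11, 5.20 and 4.73 in obese rats. The highest resveratrol rat lay below the lowest obese rat. The difference was -0.99 (SE 0.19, unadjusted p = 2.78e-05, adjusted p = 0.143 in limma). Abhd12, a lipase that breaks down lysophosphatidylserine, was also among the 12 lower genes at -0.63 (SE 0.17), with resveratrol values from 3.44 to 4.02 and obese values from 4.12 to 4.54.

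Klrk1, which encodes the activating natural killer receptor NKG2D, measured 3.94, 4.97, 4.80, 4.89 and 4.83 in resveratrol rats. In obese rats it measured 5.72, 5.43, 5.68, 5.77 and 5.33. The 4 resveratrol rats other than replicate 1 were close together and all below the obese rats, and the difference was -0.90 (SE 0.21), or -0.71 without replicate 1. In the list of NK and cytotoxic cell genes, 3 of 26 were lower and 0 higher at an unadjusted p under 0.05. The lower share was 11.5%, against 5.77% of all genes, from Klrk1, Klrc1 at -0.89 and Zeb2 at -0.44. The count was 5 without resveratrol replicate 2, 4 or 5. The median of that list was -0.20, and -0.06 without replicate 1. Ncr1 and Prf1, the defining NK receptor and perforin, differed by -0.19 and -0.16, and Klrd1 by -0.01.

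Cd180, a Toll-like receptor relative on B cells and monocytes, measured 2.36, 4.45, 3.79, 4.26 and 3.96 in resveratrol rats and 4.49, 5.03, 4.94, 5.38 and 4.57 in obese rats. Replicate 1 was far below the next resveratrol rat, and the difference of -1.12 (SE 0.30) became -0.76 without it. Zbtb25, a zinc finger factor, differed by -0.74 (SE 0.18), with resveratrol values from 3.92 to 4.53 and obese values from 4.89 to 5.19. In the B cell list 3 of 21 genes were lower and 0 higher at an unadjusted p under 0.05. The lower share was 14.3%, against 5.77% of all genes, from Jchain at -0.85, Ms4a1 (CD20) at -0.56 and Cd24 at -0.51. Without resveratrol replicate 1 no B cell gene was at an unadjusted p under 0.05, and the list median went from -0.14 to -0.05. Without obese replicate 4 or 5 the count was 1. In the T cell list 3 of 28 (10.7%, against 5.77%) were lower, Cd4, Cd2 at -0.62 and the chromatin organizer Satb1 at -0.43. The T cell count lay between 1 and 6 when single arrays were left out, with 1 without resveratrol replicate 1 or obese replicate 3 and 6 without resveratrol replicate 2 or 3. The signalling components of the T cell receptor, Cd3e, Cd3d and Lck, differed by -0.25, 0.14 and -0.07.

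The remaining lower genes belong to other processes. Snapc3, a subunit of the complex that starts transcription of small nuclear RNA genes, differed by -0.64 (SE 0.15), with resveratrol values from 4.09 to 4.69 and obese values from 4.93 to 5.36. Apold1, an early response gene of blood vessel cells, differed by -0.62 (SE 0.16), and in it replicate 1 was the highest resveratrol rat at 3.15. Ccdc50 differed by -0.70 (SE 0.19), with resveratrol values up to 6.68 and obese values from 6.69. Clock, a core transcription factor of the circadian clock, measured 3.45, 3.66, 4.01, 4.43 and 4.39 in resveratrol rats and 4.58, 4.61, 4.53, 4.90 and 4.73 in obese rats. Its difference was -0.68 (SE 0.18), and it was the 1 gene of 11 in the clock list at an unadjusted p under 0.05. The median of the clock list was -0.19, with 8 of 11 genes below 0, and it was -0.12 without resveratrol replicate 1 and -0.05 with the red cell list as a covariate. The sources used here give no time of day of sampling.

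**Figure D3:**
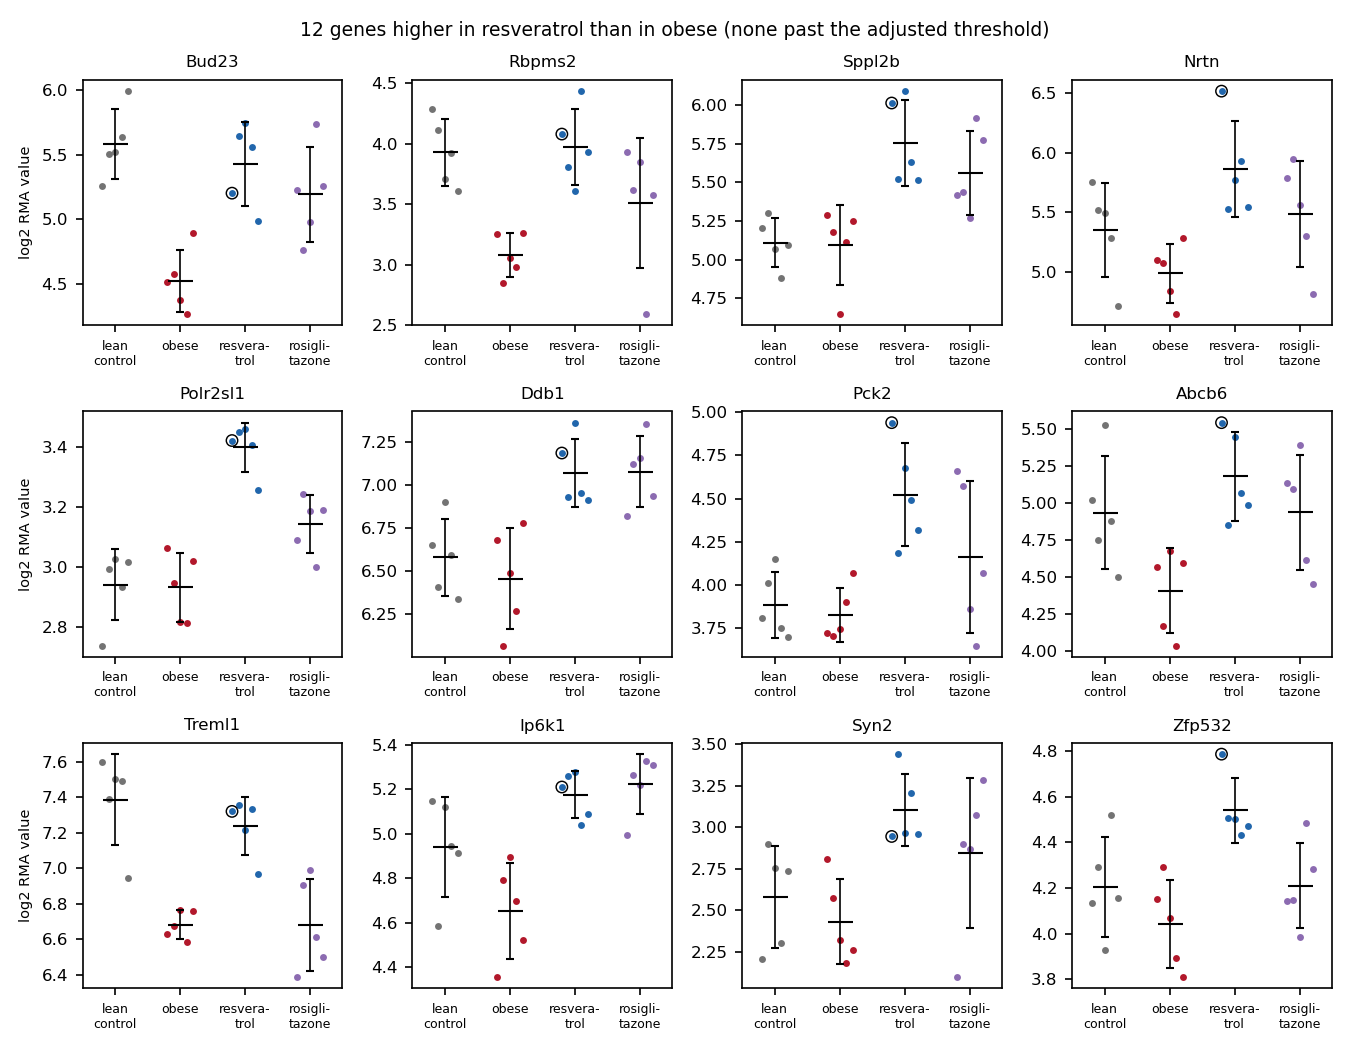
Log2 RMA values of the 12 higher genes in each rat of the 4 groups (points), with the group mean and SD (bars, n = 5) and resveratrol replicate 1 circled. The obese mean is the lowest of the 4 group means in 11 of the 12 panels, the exception being Treml1. The genes were chosen for obese values below all resveratrol values, which favours a low obese mean. Replicate 1 is the highest resveratrol point in 4 panels.

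The higher genes were of mixed roles. Bud23, a methyltransferase that modifies ribosomal RNA of the small subunit, measured 5.20, 5.64, 5.74, 5.56 and 4.98 in resveratrol rats and 4.52, 4.58, 4.38, 4.27 and 4.89 in obese rats. Resveratrol replicate 5 and obese replicate 5 nearly met, and the difference was 0.90 (SE 0.19, adjusted p = 0.143 in limma). Rbpms2, an RNA-binding protein, measured 4.08, 3.81, 3.61, 4.44 and 3.93 against 3.26, 2.85, 3.06, 2.98 and 3.26, a difference of 0.89 (SE 0.21).

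Abcb6, a porphyrin transporter, measured 5.54, 4.85, 5.45, 5.07 and 4.98 in resveratrol rats and 4.56, 4.16, 4.67, 4.03 and 4.59 in obese rats, a difference of 0.77 (SE 0.21). Treml1, a receptor that platelets store in their alpha granules, measured 7.32, 7.36, 7.21, 7.33 and 6.97 against 6.63, 6.68, 6.76, 6.58 and 6.76. The obese rats lay close together, and the difference was 0.56 (SE 0.15). Pck2, the mitochondrial phosphoenolpyruvate carboxykinase, measured 4.94, 4.18, 4.68, 4.49 and 4.32 against 3.72, 3.70, 3.74, 3.90 and 4.07, a difference of 0.69 (SE 0.18). In Pck2 replicate 1 was the highest rat, and the difference without it was 0.59. Ddb1, an adaptor of a ubiquitin ligase in DNA repair, differed by 0.61 (SE 0.16). Ip6k1, an inositol hexakisphosphate kinase, differed by 0.52 (SE 0.14), and Sppl2b, an intramembrane protease, by 0.66 (SE 0.17). Nrtn (neurturin, a neurotrophic factor) differed by 0.87, Syn2 (a synapsin) by 0.67, Zfp532 by 0.50 and Polr2sl1 by 0.47. Polr2sl1 and Syn2 are dim here, with no value above 3.46.

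In the list of 36 red cell and reticulocyte genes, 35 were above 0, against 46.6% of all 8499 genes. The median difference was 0.24. At an unadjusted p under 0.05, 9 (25%, against 4.51% of all genes) were higher and 0 lower. The 9 were Klf1, the master regulator of red cell genes, at 0.84, Trim58 at 0.63, Alad at 0.57, Dmtn at 0.56, Cpox at 0.53, the embryonic globin Hbe1 at 0.52, Urod at 0.45, Aqp1 at 0.44 and Nfe2 at 0.33. Alad, Cpox and Urod are enzymes of haem synthesis. Cpox measured 5.70, 5.71, 5.56, 5.10 and 5.31 in resveratrol rats and 4.93, 4.56, 5.36, 4.81 and 5.07 in obese rats, so its groups overlapped. No gene of the list had groups that did not overlap, against 0.682% of all genes higher without overlap.

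The mean of the red cell list was 8.35, 8.19, 8.25, 8.0 and 8.04 in resveratrol rats and 8.01, 7.76, 7.88, 7.66 and 8.06 in obese rats. Obese replicates 1 and 5 lay within the resveratrol range. Without resveratrol replicate 1 the list median was 0.24 with 4 genes at an unadjusted p under 0.05, and without obese replicate 4, the obese rat with the lowest mean, there were 2. Over all genes the higher counts in these fits were 271 and 249, in place of 383. Slc4a1 differed by 0.11. With the mean of this list as a covariate, 153 genes were higher and 234 lower at an unadjusted p under 0.05, in place of 383 and 490. The covariate itself differs between the groups, with means of 8.17 and 7.87. In that fit some list medians moved toward 0, such as monocytes from -0.31 to -0.19 and splicing factors from -0.22 to -0.16. Others moved away from 0, such as interferon response from -0.075 to -0.176 and proteasome from -0.080 to -0.134. The cause of these shifts in list medians was not tested.

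The median of the platelet list was 0.12. Of its 28 genes, 5 (17.9%, against 4.51% of all genes) were higher and 0 lower at an unadjusted p under 0.05. These were Treml1, the adhesion receptor Selp at 0.56, the lipoxygenase Alox12 at 0.43, Vwf (von Willebrand factor) at 0.40 and Nfe2. Nfe2 is also in the red cell list. Without obese replicate 4 the count was 3, and with the red cell list as a covariate it was 1. Pf4 and Gp9, defining platelet genes, differed by 0.11 and 0.21. The list mean was 7.51, 7.62, 7.46, 7.75 and 7.45 in resveratrol rats and 7.41, 7.50, 7.49, 7.23 and 7.45 in obese rats, and these ranges overlapped.

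**Figure D4:**
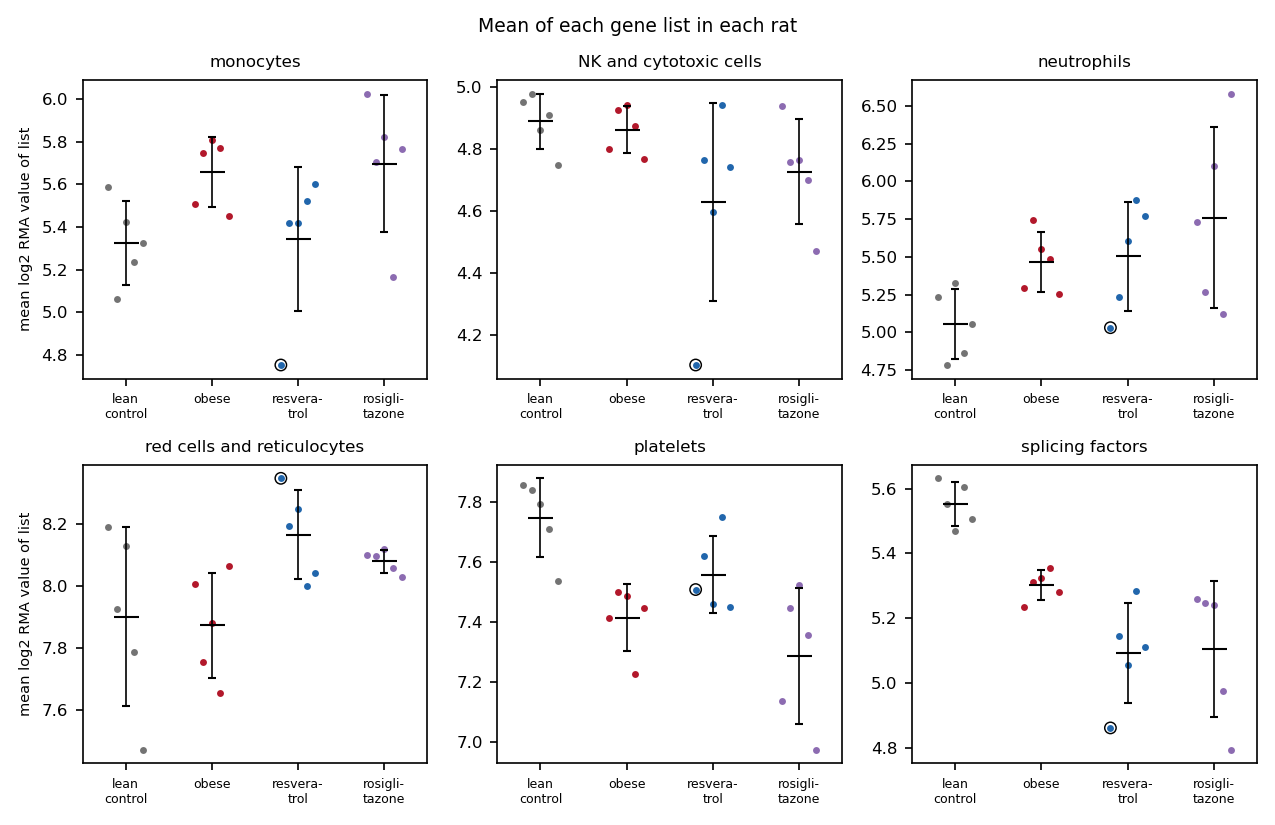
Mean log2 RMA value of 6 gene lists in each rat of the 4 groups (points), with the group mean and SD (bars, n = 5) and resveratrol replicate 1 circled. In the monocyte list that rat is at 4.75 while the other 4 resveratrol rats lie between 5.42 and 5.60, and in the red cell list it is the highest rat of all at 8.35.

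Of 47 splicing factor genes, 10 (21.3%, against 5.77% of all genes) were lower and 1 higher at an unadjusted p under 0.05. In that list 39 were below 0 and the median was -0.22. The lower ones included Snrpepl2 at -0.71, Srsf2 at -0.50, Hnrnph1 at -0.47, Hnrnpa1 and Srsf5 at -0.44 and Sf3b1 at -0.43. Snrpepl2 is a gene named as similar to Snrpe, a core protein of the splicing machinery, and copies of that family may share probes. The higher one was Sf3a2, a subunit of the SF3A complex, which measured 5.83, 5.70, 5.69, 5.34 and 5.46 against 5.26, 5.22, 4.84, 4.35 and 5.30, a difference of 0.61 (SE 0.19). Without resveratrol replicate 1 the number of lower splicing genes was 3 and the median -0.15, and without obese replicate 4 the number was 5. Over all genes the lower counts in these fits were 256 and 384, in place of 490. The list mean was 4.86 in replicate 1 and between 5.06 and 5.29 in the other resveratrol rats, against 5.24 to 5.36 in obese rats.

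Genes tied to resveratrol's proposed mediators were mixed. Sirt1 and Ppargc1a were not among the genes analysed here. In the list of the SIRT1, AMPK and PGC-1 axis, 4 of 28 genes were higher and 3 lower at an unadjusted p under 0.05. These shares were 14.3% and 10.7%, against 4.51% and 5.77% of all genes, and the list median was 0.10. Higher were Nmnat3, which makes NAD in mitochondria, at 0.52, both subunits of the tuberous sclerosis complex, Tsc2 at 0.50 and Tsc1 at 0.43, and Foxo3 at 0.44. Lower were the mitochondrial transcription factor Tfb2m at -0.58, the sirtuin Sirt7 at -0.48 and Foxo1 at -0.42. Tsc2 measured 4.54, 4.86, 4.38, 4.15 and 4.43 in resveratrol rats and 4.24, 3.46, 3.92, 4.06 and 4.21 in obese rats, with overlap at 1 resveratrol rat. The catalytic AMPK subunit gene Prkaa1 differed by -0.19 (SE 0.13). The counts of this list changed by over 1.5 times without resveratrol replicate 1 (2 higher), 3 (2 higher) or 4 (5 lower), and without obese replicate 4 (1 in each direction) or 5 (5 lower). They were 0 in both directions with the red cell list as a covariate.

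In the list of NRF2 targets and antioxidant genes, 3 of 42 (7.14%) were higher and 2 (4.76%) lower at an unadjusted p under 0.05, near the 4.51% and 5.77% of all genes, and the median was 0.11. Gsta1, a glutathione transferase, measured 4.17, 3.75, 4.17, 4.26 and 3.02 in resveratrol rats and 3.14, 3.44, 2.6, 2.46 and 2.93 in obese rats. Resveratrol replicate 5 lay within the obese range and the other 4 above it, for a difference of 0.96 (SE 0.29, adjusted p = 0.37 in limma). Malic enzyme Me1 differed by 0.49 and the red cell peroxiredoxin Prdx2 by 0.29. Txnip, an inhibitor of thioredoxin that responds to glucose, differed by -0.49 and Gsto1 by -0.49. Without resveratrol replicate 5 there were 7 higher genes in this list, and without obese replicate 5 there were 6. Without resveratrol replicate 1 there were 3 higher and 0 lower. Nqo1 and Hmox1, classical NRF2 targets, differed by 0.37 (SE 0.20) and -0.34 (SE 0.18). Cat (catalase) and Sod2 (mitochondrial superoxide dismutase) differed by 0.04 and 0.02, with standard errors of 0.11 and 0.13.

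Of 10 genes of the aryl hydrocarbon receptor and xenobiotic enzymes, 1 was higher at an unadjusted p under 0.05, Cyb5a at 0.48. The receptor gene Ahr differed by -0.22 (SE 0.23). Of 23 genes for proteins reported to bind resveratrol, 1 was lower, Ttr (transthyretin) at -0.45 (SE 0.16), and its values of 2.38 to 2.80 in resveratrol rats and 2.72 to 3.27 in obese rats lay near the filter. Without resveratrol replicate 1 there was also 1 higher, Rrm2 at 0.72 (unadjusted p = 0.00367 in limma). The direction of the median of this list was not stable, at 0.03 with a range of -0.06 to 0.07 over 21 alternatives.

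**Figure D5:**
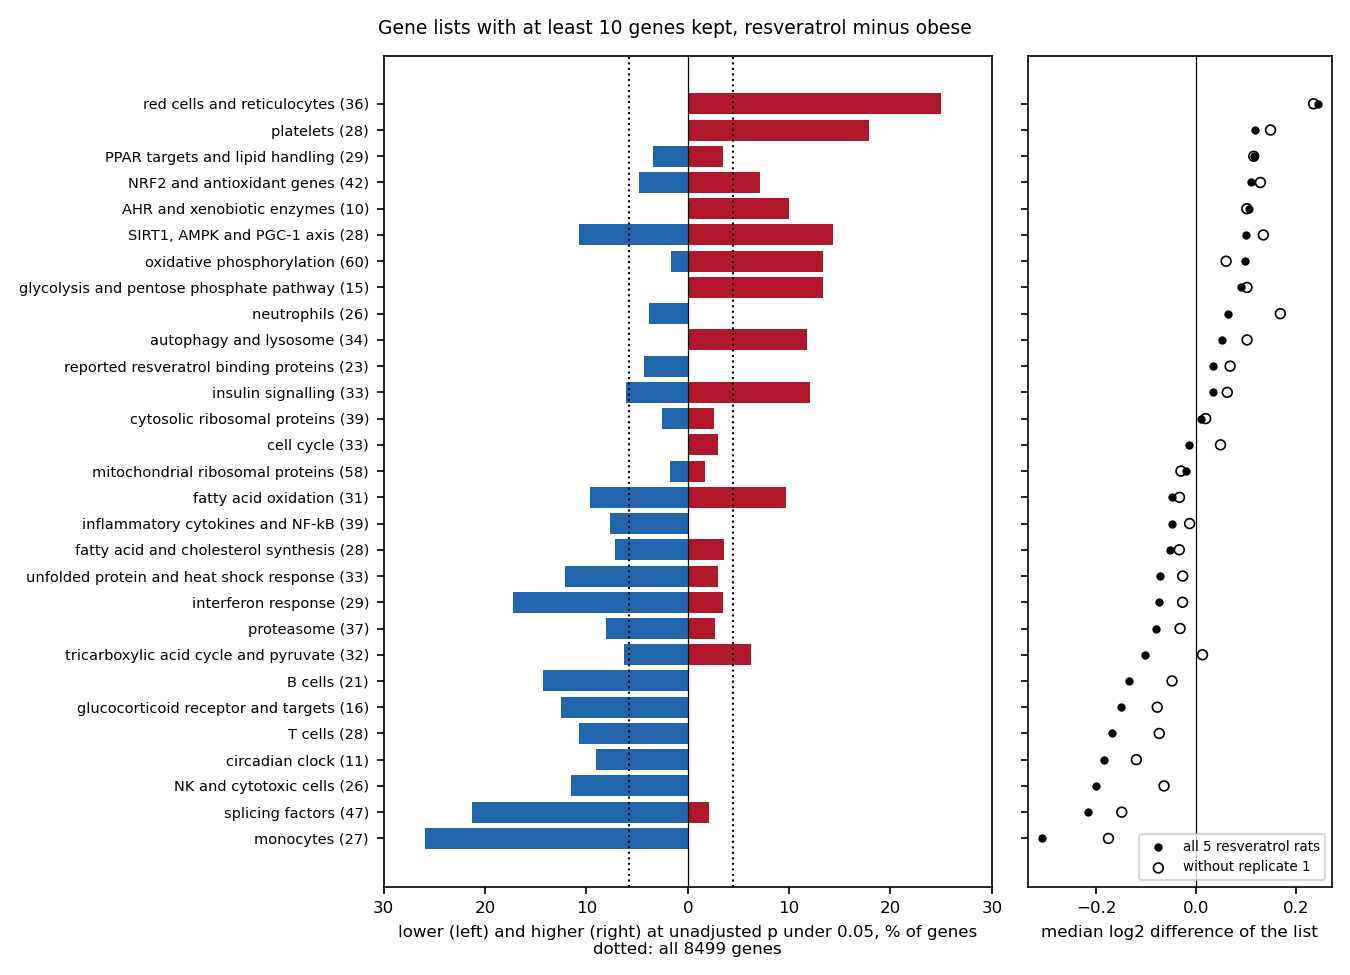
Left, the share of each gene list lower (blue) or higher (red) in resveratrol than in obese rats at an unadjusted p under 0.05, with dotted lines at 5.77% and 4.51%, the shares over all genes. Right, the median log2 difference of each list with all 5 resveratrol rats (filled) and without replicate 1 (open). Numbers in brackets are genes kept. Lists with at least 10 kept are plotted, and among them the monocyte, splicing and red cell lists lie farthest from the dotted lines.

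Of 39 genes of cytokines and NF-kB, 3 (7.69%, against 5.77% of all genes) were lower at an unadjusted p under 0.05, Casp1 (the interleukin-1 converting enzyme) at -0.45, Irak3 at -0.44 and Tnip2 at -0.42, and the median was -0.05. None of these remained at an unadjusted p under 0.05 without resveratrol replicate 1, and the count was 1 without obese replicate 3, 5 without resveratrol replicate 3 or 5, and 6 without obese replicate 1. Il1b and Tnf differed by -0.13 (SE 0.25) and -0.09 (SE 0.19). Of 29 interferon response genes 5 (17.2%, against 5.77% of all genes) were lower and 1 (3.45%, against 4.51%) higher. The lower ones included the antiviral GTPase Mx1 at -0.74 (SE 0.28) and Ifit2 at -0.56 (SE 0.22). Mx1 measured 2.82, 3.87, 3.41, 4.54 and 3.81 in resveratrol rats and 4.40, 4.63, 4.55, 4.26 and 4.33 in obese rats, so that resveratrol replicate 4 lay within the obese range. In 1 of the 29 interferon genes, Ifi27, the groups did not overlap, against 1.09% of all genes lower without overlap. Ifi27 measured 6.70 to 7.15 in resveratrol and 7.25 to 7.45 in obese rats. Its difference was -0.45 (SE 0.21, adjusted p = 0.459 in limma). Without replicate 1 no interferon gene was at an unadjusted p under 0.05. Without resveratrol replicate 4 there were 9 lower genes, and without obese replicate 2 or 3 there were 3. Nr3c1, the glucocorticoid receptor, lay lower in every resveratrol rat, with 4.98 to 5.68 against 5.84 to 6.25, a difference of -0.53 (SE 0.18).

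Metabolic lists had members on both sides. In insulin signalling 4 of 33 (12.1%, against 4.51% of all genes) were higher and 2 (6.06%, against 5.77%) lower. There were 2 higher without obese replicate 4, and 3 higher and 1 lower without resveratrol replicate 1. Rps6, a ribosomal protein and target of this pathway that is also in the cytosolic ribosomal list, lay higher at 0.66 (SE 0.21). Its values were low, with 3.30 to 4.46 in resveratrol and 2.78 to 3.56 in obese rats, near the filter at 2.64. The means of the cytosolic ribosomal list were 7.49 and 7.48. The receptor gene Insr differed by 0.08 (SE 0.17) and the adaptor gene Irs2 by 0.02 (SE 0.22). In fatty acid oxidation 3 of 31 were higher (Hadhb at 0.60, Acaa1a at 0.46, Ech1 at 0.39). Another 3 were lower (Crot at -0.63, Acadm and Eci2 at -0.43). Each share was 9.68%, against 4.51% higher and 5.77% lower over all genes. The lower count was 1 without resveratrol replicate 3 and 5 without obese replicate 1. Cpt1a, which controls entry of fatty acids into mitochondria, differed by -0.12 (SE 0.18). In sterol and fatty acid synthesis Msmo1 lay lower without overlap, with 2.78 to 4.07 against 4.09 to 4.34, a difference of -0.63, while Fdps lay higher at 0.46. The monocarboxylate transporter Slc16a1 of the glycolysis list differed by 0.59 (SE 0.20). Of 60 genes of oxidative phosphorylation 8 (13.3%, against 4.51% of all genes) were higher and 1 lower. Among the 8 were Atp5po and Cox5b at 0.59 and Uqcrc1 and Ndufa12 at 0.53. The higher count was 2 without resveratrol replicate 1 and 5 without resveratrol replicate 3 or obese replicate 4. The list median of 0.10 became -0.04 with the red cell list as a covariate.

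Of 34 autophagy and lysosome genes 4 (11.8%, against 4.51% of all genes) were higher and 0 lower. The 4 were led by Map1lc3a, which encodes a coat protein of autophagosomes. Map1lc3a measured 4.47, 3.95, 3.66, 3.22 and 3.34 in resveratrol rats and 3.07, 2.95, 2.76, 2.52 and 3.37 in obese rats, a difference of 0.79 (SE 0.21). Obese replicate 5 lay within the resveratrol range. The count was 2 without resveratrol replicate 3 or obese replicate 2 or 4. Of 33 heat shock and unfolded protein genes, 4 (12.1%, against 5.77%) were lower and 1 (3.03%, against 4.51%) higher. Hspa9 and Dnaja2 were at -0.50, and none of these genes remained without resveratrol replicate 1. The count of lower genes there was 1 without obese replicate 2, 3 or 4. Of 37 proteasome genes 3 (8.11%, against 5.77%) were lower and 1 (2.7%, against 4.51%) higher. The lower count was 1 without resveratrol replicate 1 or obese replicate 3 and 6 without resveratrol replicate 4. Cytosolic (39) and mitochondrial (58) ribosomal proteins each had 1 gene higher and 1 lower. Of 33 cell cycle genes 1 was higher, Cdk1 at 0.64, and the median of -0.02 took the other sign under 11 of 21 alternatives, quantile normalization included.

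Rosiglitazone, an agonist of the nuclear receptor PPAR-gamma, was given to another 5 rats, and resveratrol was compared with it in the same fit. 2 genes were higher in resveratrol and 2 lower at an adjusted p under 0.05 in limma (0.0235% of genes in each direction). H2ac12, a histone H2A gene, measured 6.68, 6.80, 7.14, 6.31 and 6.25 in resveratrol rats and 5.01, 5.40, 5.27, 5.53 and 5.45 in rosiglitazone rats, 1.30 higher (adjusted p = 0.000195). RGD1565183 was 2.12 higher (adjusted p = 0.00117), with 5.82, 3.87, 4.89, 3.94 and 3.73 against 2.08, 2.70, 1.66, 2.64 and 2.55. Its rosiglitazone and lean control means, 2.33 and 1.83, lay below the filter at 2.64. It passed the filter only through its resveratrol and obese values, so the size of its difference is uncertain. Snrpgl2, named as similar to the splicing protein gene Snrpg, was lower (-2.30, adjusted p = 0.000132), with 4.32, 3.32, 3.03, 3.82 and 2.30 against 5.75, 5.72, 6.01, 5.95 and 4.84. Prok2, a secreted peptide that neutrophils make among other cells, was also lower (-1.52, adjusted p = 0.0130), with 4.51, 5.56, 4.86, 4.92 and 4.87 against 6.54, 5.67, 7.07, 6.62 and 6.42. In H2ac12, RGD1565183 and Snrpgl2 the resveratrol rats differed from the obese rats by 0.22, 0.50 and -0.26 (0.21, 0.16 and -0.50 without resveratrol replicate 1), whereas rosiglitazone differed from obese by -1.09, -1.62 and 2.04. The lean control means of these 3 genes, 5.24, 1.83 and 5.38, lay near those of rosiglitazone, 5.33, 2.33 and 5.65.

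The number of lower genes against rosiglitazone changed with single rats. It was 7 without resveratrol replicate 1 (with 4 higher), 5 without resveratrol replicate 2, 4 without 4 and 6 without 5, and 1, 4 and 9 without rosiglitazone replicates 1, 3 and 4. H2ac12, RGD1565183 and Snrpgl2 passed in every alternative in which they were tested, and Prok2 in 19 of 21. Of the lower genes against obese, Treml4 and Pilrb1l1 differed from rosiglitazone by -1.06 and -1.23, and Adgre4 and Cx3cr1 by -0.96 and -0.97, none past the adjusted threshold. Their rosiglitazone means, 6.01, 6.43, 7.34 and 6.32, lay near the obese means of 5.96, 6.32, 7.61 and 6.40. Klrk1 was at 4.52 in rosiglitazone and 4.69 in resveratrol rats, against 5.58 in obese rats. Both treatments are set against the same 5 obese arrays, so their values are given side by side only.

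Against lean control rats, 232 genes (2.73%) were higher in resveratrol and 886 (10.4%) lower at an adjusted p under 0.05 in limma. The split depended on scaling, with 176 higher and 239 lower after quantile normalization and 132 and 1213 after centring each array on its median. It also depended on single rats, with 69 higher and 249 lower without resveratrol replicate 1 and 107 and 540 without replicate 3. Without lean control replicates 1, 2 and 4 the counts were 77 and 266, 115 and 472, and 57 and 260. In the same fit, 6 genes were higher and 17 lower in obese than in lean rats. Of the 12 lower genes, 6 were also lower in resveratrol than in lean rats at the adjusted threshold, against 10.4% of all genes. They were P2ry10, Klrk1, Snapc3, Zbtb25, Clock and Cd180. For the other 6 the lean mean lay below the obese mean, as for Treml4 with 4.99 in lean, 4.95 in resveratrol and 5.96 in obese rats. Of the 12 higher genes, Sppl2b, Polr2sl1, Ddb1 and Pck2 were higher than in lean rats at that threshold, against 2.73% of all genes. Bud23 was at 5.58 in lean, 5.43 in resveratrol and 4.53 in obese rats, and Rbpms2 at 3.93, 3.97 and 3.08. These genes were chosen on their resveratrol and obese values, and the same resveratrol values enter the comparison with lean rats. The choice favoured passing there, so their place relative to lean rats is a description. Among the lists, 17 of 47 splicing factor genes, 11 of 28 T cell genes and 10 of 21 B cell genes were lower than in lean rats. This was at the adjusted threshold, against 10.4% of all genes. Also lower were 10 of 32 tricarboxylic acid cycle and pyruvate genes, 11 of 39 cytosolic ribosomal genes and 8 of 29 interferon genes. In the monocyte list it was 1 of 27. These list counts are of the main fit, and the total over all genes varied with scaling and single rats as given above.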

How the data were processed

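Total RNA of whole blood (100 ng per array) was hybridized to Affymetrix Rat Gene 2.1 ST strips, 1 array per rat. The authors made the deposited log2 values with RMA, whose version and settings, and the genome build, are not given in the sources used here. Its 36685 transcript clusters have values from -0.288 to 12.2. Arrays give no read depth, so precision is limited by their number, 5 per group. The platform annotation gives 1 symbol for 14824 clusters, several for 829 and none here for 21032. Only the first set was used, and 14670 of them were named through Entrez identifiers in the RefSeq gene table (GRCr8). The cluster with the highest mean over the 20 arrays stood for a gene, and genes with a mean under 2.64 were removed, which left 8499 of 14557.

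Groups were those of the labels. Each gene was fitted in R 4.3.3 with limma 3.58.1 (lmFit, eBayes) over all 20 arrays with 4 group means, with Benjamini-Hochberg adjustment over all genes at a threshold of 0.05. The labels call the replicates biological and do not name litters. The code was tested on simulated data. The members, the 32 gene lists and the rule for named genes were chosen with earlier results of these data known. The rule took, in each direction, the 12 genes with the smallest p without overlap between groups (locus numbers and predicted family names were passed over), plus up to 2 members of each list. Clec4a3, Mybl2, Prok2 and other genes named outside it were picked after their values were seen, as were the promoter motifs. Lists were described by counts and medians with no test of the list. Some genes are in more than 1 list, such as Cd4 (monocytes and T cells) and Nfe2 (red cells and platelets), so list counts are not independent. Replicate numbers do not pair the groups: same-numbered resveratrol and obese rats deviated from their group means with correlations from -0.12 to 0.15, and 2 of 5 were over 0.1. Alternatives were no filter, a filter at the 75th percentile (4361 genes), quantile normalization, centring of arrays, the 10 arrays compared alone, averaging the clusters of a gene, eBayes with trend and robust settings, array weights, the replicate block, the red cell list as covariate and leaving out each array. Leaving out 3 arrays (resveratrol 1, rosiglitazone 5 and lean control 1) and testing all clusters were added after seeing the data. Promoter sequences are from RefSeq. Figures were drawn with matplotlib.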

Additional observations from a re-analysis of the deposited data

Results flagged for a closer look

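In groups of 5 rats, the gap between the most extreme rat and its neighbour was set against the range of the group. 10 of 116 groups tested had a rat whose gap exceeded the 95% limit for 5 values, and chance gives about 1 in 20 for independent groups. These groups come from the same arrays, some lists share genes, and many of the genes were chosen for groups without overlap. That rate therefore does not strictly apply, and the count is a description. Of the 10, 6 concerned resveratrol replicate 1. The gap was 0.867 of the range for its mean correlation with the other arrays of its group (0.934, next 0.955), 0.837 for Klrk1 (3.94, next 4.80), 0.799 for Zfp532 (4.79, next 4.51), and 0.783, 0.796 and 0.818 for the means of the monocyte list, of the resveratrol binding protein list and of the PPAR target list. Resveratrol replicate 5 was low in Polr2sl1 (0.736 of the range). Among obese rats, replicate 3 was low in Sppl2b (0.732), replicate 5 was low in Adgre4 (0.818, at 7.23 with the next at 7.67) and replicate 4 was low in the mean of the cell cycle list (0.77).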

How the results depend on the processing

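Between resveratrol and obese rats the count of 0 higher and 0 lower genes held under every alternative except 1. Without obese replicate 5, 1 gene was higher, Mybl2, a cell cycle transcription factor (1.08, adjusted p = 0.0256 in limma). It was at 3.81 to 4.28 in resveratrol rats, at 2.68 to 3.28 in obese replicates 1 to 4 and at 4.05 in obese replicate 5. Leaving out single rats gave 0 to 1 gene higher. The replicate block gave 0 and 0, with a smallest adjusted p of 0.247, and changed no call of this comparison.

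Against rosiglitazone (2 higher, 2 lower) the block gave 2 and 3. The 75th percentile filter gave 1 and 6, the trended robust prior 5 and 8, and all clusters 5 and 12. Quantile normalization gave 4 lower, array weights 8 and leaving out 3 arrays 4. Single rats gave 2 to 4 higher and 1 to 9 lower. Against lean rats (232 and 886) the block gave 224 and 808. The 75th percentile filter gave 143 higher, centring 132 higher, array weights 397 higher and quantile normalization 239 lower. The red cell covariate gave 43 and 144, leaving out 3 arrays 54 and 191, and single rats 57 to 285 higher and 249 to 1078 lower. The cause of these shifts was not tested.

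Of 1635 differences of named genes under alternatives, 1632 kept their sign and their side of the threshold. These genes were chosen for groups without overlap or for a small p, which favours a kept sign. None passed the threshold in the main fit, so the count is a description and no measure of stability. Myoz1 changed sign to -0.0448 with the red cell covariate, and Cox6a2 to -0.3408 with it. Leaving out single rats, Cox6a2 ranged from -0.0043 (without obese replicate 4) to 0.3331. The precision is set by 5 rats per group, with a median standard error of 0.19, so differences of that size were not detectable here. Much larger differences did not pass either, such as P2ry10 at -0.99 (SE 0.19) and Adgre4 at -1.24 (SE 0.25), each with an adjusted p of 0.143 in limma. A count of 0 therefore does not show that the groups are alike.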

Other observations

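Transcript clusters without a single gene symbol were outside the comparisons of genes. Over all 36685 clusters, named or not, 0 were higher and 0 lower in resveratrol than in obese rats in limma, with a smallest adjusted p of 0.236, and 1244 and 1533 had an unadjusted p under 0.05.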
